A study of Homo sapiens with 8 samples.

Results

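The C19MC miRNAs were examined in small RNA libraries of 786O, an established cell line of human clear cell renal cell carcinoma (ccRCC). Members were all rows of the deposited count table named miR-498, miR-512, miR-515 to miR-527, miR-1283 or miR-1323, with any letter, arm or locus suffix. This rule took 39 of 3112 rows, and 1482 of the 3112 rows were known miRNAs. The 4 negative control (NC) libraries came from cells given a control plasmid, and the 4 circSOD2-sh libraries from cells given a short hairpin plasmid against circSOD2, a circular RNA of the SOD2 gene. Per the labels, both plasmids were delivered with Lipofectamine 3000 and RNA was taken after 48 h, whereas the paper's methods describe lentiviral knockdown with puromycin selection. Which hairpin was used is not named, and the level of circSOD2 was not analysed here. The labels do not state whether replicates were separate cultures, so the p-values measure the spread between these samples, which may be technical.

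C19MC is an array of miRNA hairpins found in primates only. It is imprinted, transcribed from the paternal copy by RNA polymerase II, and known above all as a main source of miRNAs in trophoblast, from which its products reach the maternal blood. Most adult tissues are known to hold little of it, and it is also active in some embryonic cells and tumours.

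In GENCODE release 29 on GRCh38 the cluster held 46 hairpins on the plus strand at chr19:53666679-53762430, a length of 95.8 kb. No hairpin overlapped another annotated gene except MIR519A2, the last of them, which lay in an exon of the lincRNA AC011453.1. The mature sequences are shown because many members differ by few bases and several names carry a single sequence, which decides what each count can tell. RefSeq (GRCh38.p14) gave a sequence for 36 of the 39 rows. The first 3 sequences below carried most of the counts for which a sequence was found, miR-519a-3p and miR-521 came next, and miR-517a-3p is a well known placental member. Capitals mark the seed, bases 2 to 8, which is the main part that pairs with target RNA.
miR-516a-5p: uUCUCGAGgaaagaagcacuuuc
miR-1283: uCUACAAAggaaagcgcuuucu
miR-522-5p: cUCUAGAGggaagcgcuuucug
miR-519a-3p: aAAGUGCAuccuuuuagagugu
miR-521: aACGCACUucccuuuagagugu
miR-517a-3p: aUCGUGCAucccuuuagagugu

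The miR-522-5p sequence was also that of miR-519a-5p, miR-518e-5p, miR-523-5p, miR-519b-5p and miR-519c-5p, and the 6 rows held the same counts in every library. These rows are treated below as a single shared 5p sequence, whose reads cannot be assigned to any of the 6 hairpins. miR-517a-3p and miR-517b-3p were identical in the same way. Identical counts were also found for miR-518a-5p and miR-527, for miR-520c-3p and miR-520f-3p, for miR-520g-3p and miR-520h, and for miR-518a-3p and miR-518b. With rows of the same RefSeq sequence counted once, 33 sequences were left.

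Seeds and tails were shared within the cluster in different ways. The seeds of miR-516a-5p and miR-1283 were found in no other of the 1298 known rows with a RefSeq sequence, and that of the shared 5p sequence only in miR-518f-5p, another member, with 3 counts in all. A stretch of 8 bases, AGCACUUU, was held by 9 of the 30 distinct member sequences found in RefSeq and by 1 of 1255 other known sequences (0.0797%). Another stretch, CCCUUUAG, was held by 6 of the 30 and by 0 of the 1255. The first occurred in 5p rows only, starting between bases 10 and 15, and the second in 3p rows and rows without an arm in the name. The first was 1 of 2 stretches of this length held by 9 member sequences, the highest number, and the second was the most frequent, or tied for it, among the 21 sequences without the first. Both were searched on the mature strand, and they are shown in capitals in 4 members that differ in the seed.
miR-516a-5p: uucucgaggaaagaAGCACUUUc
miR-524-5p: cuacaaagggaAGCACUUUcuc
miR-521: aacgcacuuCCCUUUAGagugu
miR-519d-3p: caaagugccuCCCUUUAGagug

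The NC libraries held 6386872 to 9245044 counts each, the circSOD2-sh libraries 3743860 to 4208276. One predicted miRNA took up 54.3% to 59.1% of all counts in an NC library, against 0.063% to 0.105% in a circSOD2-sh library. Levels are therefore given as CPM after TMM normalization (normalized CPM), which sets the bulk of the miRNAs equal between libraries, and the effect of other scalings is given beside the comparison. The 6 known miRNAs of kidney tubule cells summed to between 43318 and 58169 normalized CPM in all libraries, but they did not move together. Of the 5 tested with TMM, 3 were lower in circSOD2-sh and 1 was higher at an edgeR adjusted p under 0.05. Their median log2 fold change was -0.87, so the sum does not show that each marker kept its level. Markers of other cell types were raised in NC replicate 4 and in circSOD2-sh replicate 2, and these values follow below. A count of 0 allows up to 3 counts, equal to 0.460 to 0.674 normalized CPM for the NC libraries and 0.510 to 0.602 for the others. Floors and intervals cover counting error only, since the labels mention no molecular identifiers.

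C19MC was present at a low level carried by few members. miR-516a-5p had 1421 counts over the 8 libraries, miR-1283 had 1123, and miR-522-3p had 569. With each sequence counted once, these 3 miRNAs held between 88.1% (95% Wilson interval 84.1% to 91.3%) and 92.2% (89.7% to 94.2%) of the cluster's counts in a library. The next were the shared 5p sequence with 92 counts and miR-519a-3p with 48. Ordered by mean level in NC among the 1482 known miRNAs, miR-516a-5p ranked 178, miR-522-3p 240, the shared 5p sequence 401 and miR-519a-3p 531. In circSOD2-sh the first 3 of these ranked 213, 306 and 511.

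All 39 rows had a count in at least 1 library, but so did all 3112 deposited rows, so this says nothing about the cluster. Of the 39 rows, 34 had a count in NC and 34 in circSOD2-sh. No row was listed for the hairpins MIR498, MIR520E, MIR526A1, MIR526A2 and MIR518D, so not every member was seen. Counts were found in all 8 libraries for 10 rows, and in a single library for 9 rows. Of the 39 rows, 20 had fewer than 10 counts in all 8 libraries together, from 1 to 8 each, with at most 5 in any library. Among these were the placental members miR-512-3p with 8 counts and miR-1323 with 6. At this depth their levels could not be compared between groups.

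miR-516a-5p, encoded by both MIR516A1 (chr19:53756741-53756830) and MIR516A2 (chr19:53761133-53761222), was the most abundant member. Its level was 33.4, 39.9, 41.1 and 37.3 normalized CPM in NC replicates 1 to 4 and 15.6, 31.6, 28.7 and 21.9 in circSOD2-sh replicates 1 to 4. The highest circSOD2-sh library lay just under the lowest NC library, and the circSOD2-sh libraries spread over a wide range, with an SD of 7.15 around a mean of 24.5 against 3.38 around 37.9 in NC (n = 4 each). With TMM it fell by 0.63 ± 0.21 on the log2 scale (SE, edgeR quasi-likelihood test, Benjamini-Hochberg adjusted p = 0.0234), and its sign turned with library totals, upper-quartile factors and limma on the deposited CPM.

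miR-1283 is encoded by MIR1283-1 (chr19:53688481-53688567) in the first part of the cluster and by MIR1283-2 (chr19:53758232-53758318) near its end, and its counts cannot be divided between them. Its level was 28.8, 34.3, 31.7 and 26.5 normalized CPM in NC and 20.4, 16.6, 18.1 and 18.5 in circSOD2-sh. The groups did not overlap, and the circSOD2-sh libraries lay close together at 18.4 ± 1.57 (SD, n = 4) against 30.4 ± 3.40 in NC. With TMM it fell by 0.72 ± 0.14 on the log2 scale (edgeR adjusted p = 0.00107), with the opposite sign under the same 3 scalings as miR-516a-5p.

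miR-522-3p was placed by its name alone at the hairpin MIR522 (chr19:53751211-53751297). It was among the 3 rows without a RefSeq sequence here, with miR-527 and miR-520b, so other sources were not checked. Its level was 14.3, 15.2, 19.4 and 14.8 normalized CPM in NC and 8.67, 7.95, 10.6 and 8.54 in circSOD2-sh, again without overlap. The means were 15.9 ± 2.36 and 8.95 ± 1.17 (SD, n = 4). With TMM it fell by 0.83 ± 0.17 on the log2 scale (edgeR adjusted p = 0.00152), whereas the change was positive with library totals and upper-quartile factors and -0.01 with limma on the deposited CPM.

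The shared 5p sequence was much lower, with 14, 17, 19 and 9 counts in the NC libraries and 11, 9, 6 and 7 in the circSOD2-sh libraries. In normalized CPM these were 2.15, 2.62, 3.24 and 2.02 against 1.87, 1.59, 1.20 and 1.25, which did not overlap although the nearest libraries were close. With TMM it fell by 0.75 ± 0.25 on the log2 scale (edgeR adjusted p = 0.0242), with the opposite sign under library totals, upper-quartile factors and limma on the deposited CPM. It passed the low-count filter of 1.89 unscaled CPM in 2 NC and 2 circSOD2-sh libraries and failed it when any NC library was left out, whereas the other 3 members passed in all 8. Its adjusted p was 0.0918 with DESeq2, 0.179 without the low-count filter and 0.0571 with the replicate block.

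**Figure D1:**
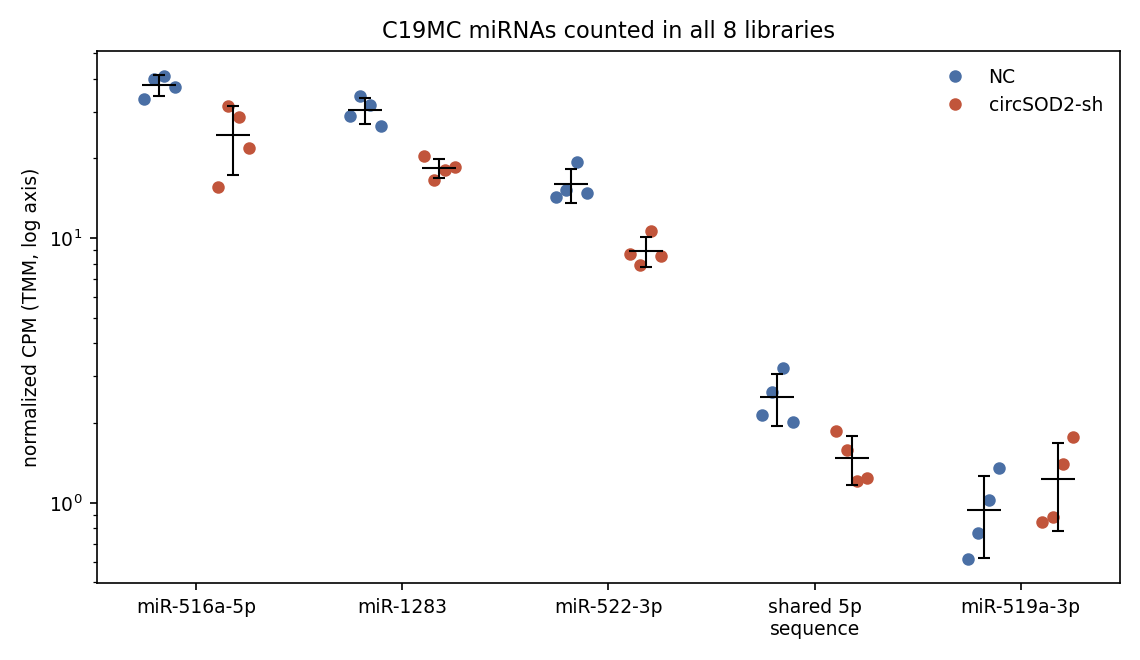
Level of 5 C19MC sequences in each library, in normalized CPM on a log axis, with points for the 4 NC and 4 circSOD2-sh libraries and bars for the mean ± SD. The points of the groups do not overlap for miR-516a-5p, miR-1283, miR-522-3p and the shared 5p sequence, which are lower in circSOD2-sh with TMM and not with library totals, upper-quartile factors or limma on the deposited CPM (miR-522-3p was at -0.01 there), and they overlap for miR-519a-3p.

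Of the 39 rows, 9 passed the filter, and they stand for only these 4 sequences because 6 of the rows are identical. All 9 were lower in circSOD2-sh at an adjusted p under 0.05 with TMM, and 0 with library totals, upper-quartile factors or limma on the deposited CPM. Over the 895 rows tested, 32.4% were lower and past this threshold (290 rows), and over the 463 known miRNAs tested 28.5% were (132 rows). Every circSOD2-sh library lay below every NC library for all 9 rows, and for 31.8% of the 895. The median log2 fold change of the 4 sequences was -0.74, against 0.00 over the 895 rows and -0.11 over the known miRNAs. The 6 rows of the shared sequence enter the fit as separate tests and are not independent.

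The scaling set the sign of these changes. With library totals the log2 fold changes were 0.25 for miR-1283, 0.32 for miR-516a-5p, 0.13 for miR-522-3p and 0.20 for the shared 5p sequence, and none passed the threshold in edgeR. The median of all 895 rows stood at 0.96 in that scaling, 0.83 with upper-quartile factors, 0.72 with limma on the deposited CPM plus 1, and -0.35 when libraries were scaled to their known miRNAs. A scaling moves all rows of a library alike, so the distance of a member from that median could hardly differ between the 6 scalings. This distance therefore cannot decide the sign of the change. miR-1283 lay between 0.62 and 0.72 below the median of all rows, and miR-516a-5p between 0.58 and 0.64. miR-522-3p lay between 0.73 and 0.83 below it, and the shared 5p sequence between 0.68 and 0.77. The number of C19MC molecules per cell was not measured.

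**Figure D2:**
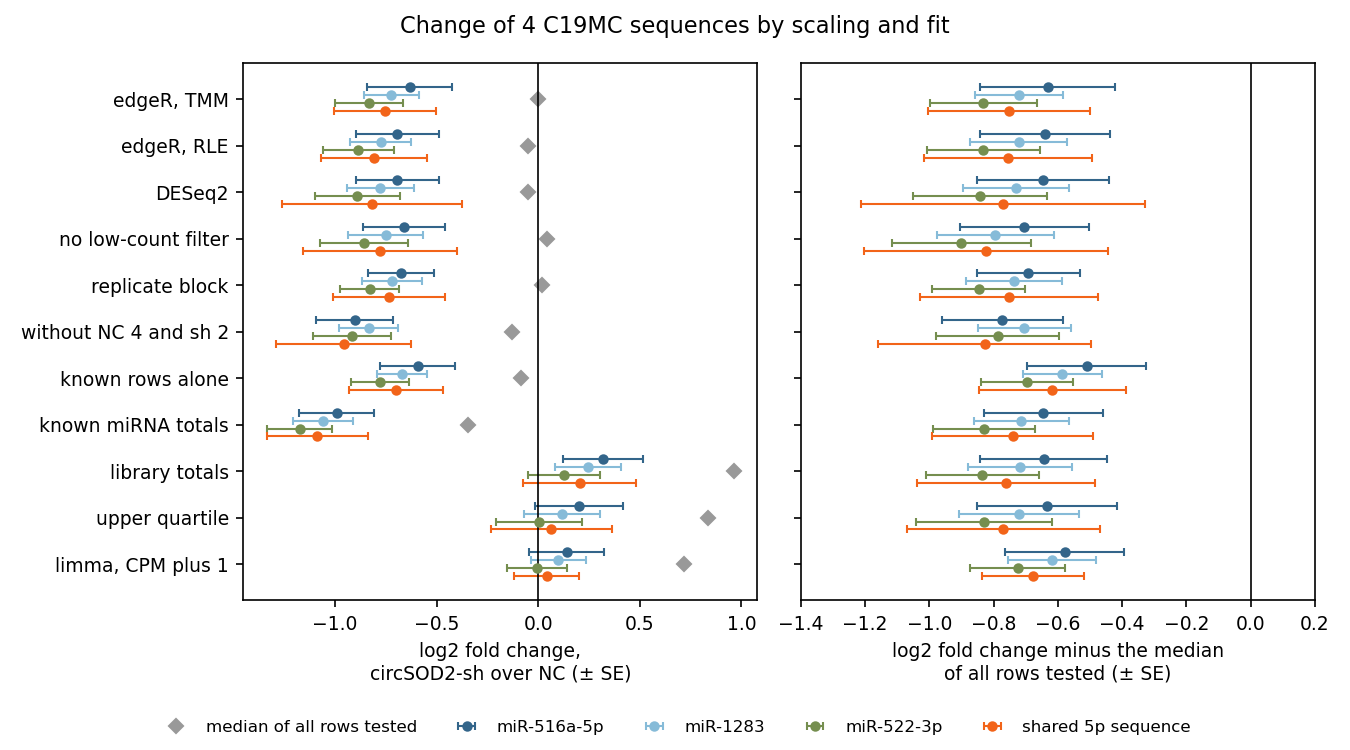
Log2 fold change of circSOD2-sh over NC for 4 C19MC sequences in 11 fits, with bars for the SE, on the left as fitted with diamonds for the median of all rows tested, and on the right minus that median. The values on the left are negative with TMM, RLE, DESeq2 and known miRNA totals. They turn positive with library totals and upper-quartile factors, where the diamonds stand at 0.96 and 0.83, and span -0.01 to 0.14 with limma. On the right all 4 sequences stay below 0 in every fit shown. A scaling moves all rows of a library alike, so the right side could hardly differ between scalings.

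The remaining members had far fewer counts and were not tested. miR-519a-3p, encoded by MIR519A1 (chr19:53752397-53752481) and MIR519A2 (chr19:53762344-53762430), had 4, 5, 6 and 6 counts in NC and 5, 5, 7 and 10 in circSOD2-sh. Its level was 0.939 ± 0.321 normalized CPM in NC and 1.23 ± 0.446 in circSOD2-sh (SD, n = 4), and the groups overlapped. miR-521 had 3, 4, 4 and 4 counts in NC and 3, 0, 3 and 3 in circSOD2-sh, within the range where counting error decides. Both were under the low-count filter.

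Of the other 8 rows with at least 10 counts, 6 overlapped between the groups. miR-515-5p had 1, 0, 4 and 2 counts in NC and 0, 5, 2 and 1 in circSOD2-sh. miR-517a-3p and miR-517b-3p, a single sequence, had 1, 1, 2 and 0 counts in NC and 3, 1, 1 and 3 in circSOD2-sh. These levels were near or below the floor in both groups.

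miR-524-5p had 2, 1, 2 and 1 counts in NC and 1, 0, 4 and 1 in circSOD2-sh, and miR-520d-5p had 1, 2, 1 and 0 against 0, 2, 4 and 2. miR-525-5p had 2, 3, 0 and 2 counts in NC and 1, 1, 1 and 4 in circSOD2-sh. miR-518a-5p and miR-527 had the same counts in each library, 2, 2, 3 and 2 in NC against 0, 1, 0 and 0 in circSOD2-sh, which did not overlap but lay at or under the floor of 3 counts.

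Together the 29 sequences without a test held 6.34% of the cluster's counts. Their summed level was 4.29, 5.85, 4.95 and 4.94 normalized CPM in NC and 3.06, 3.71, 6.22 and 5.34 in circSOD2-sh. The means of 5.01 ± 0.639 and 4.58 ± 1.45 (SD, n = 4) differed by less than the spread between replicates.

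Summed over the 39 rows as listed, C19MC stood at 93.9, 111.2, 117.0 and 95.7 normalized CPM in NC and 59.5, 69.6, 71.0 and 62.3 in circSOD2-sh. This sum is too high as a level of molecules, because it adds the shared 5p sequence 6 times and that of miR-517a-3p 2 times. The lowest NC library was above the highest circSOD2-sh library. The means were 104.4 ± 11.4 and 65.6 ± 5.59 (SD, n = 4), a ratio of 0.628 with TMM, whereas the authors' CPM gave 70.0 in NC and 77.6 in circSOD2-sh, the other way round. With each sequence counted once the TMM means were 91.7 ± 8.71 and 57.8 ± 6.70, a ratio of 0.631. As CPM of the known miRNA counts alone, the 39 rows stood at 181.7 to 204.6 in the NC libraries and at 92.7 to 98.2 in the circSOD2-sh libraries. No test was made on these sums. In bulk RNA, fewer cells that hold the cluster and less of its RNA per cell cannot be told apart.

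The proportions within the cluster do not depend on the scaling of a library. The ratio of miR-522-3p to miR-1283 counts ran from 0.444 to 0.613 over the NC libraries and from 0.425 to 0.589 over the circSOD2-sh libraries. That of miR-516a-5p to miR-1283 was between 1.16 and 1.41 in NC, and in circSOD2-sh it was 0.767, 1.90, 1.59 and 1.18 in replicates 1 to 4, so that the circSOD2-sh libraries lay on both sides of NC. miR-522-3p was 4.64 to 8.83 times as frequent as the shared 5p sequence, of which MIR522 is only one of 6 named sources.

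Most counts came from sequences with a copy at the distal end of the cluster. The last 7 hairpins, MIR522, MIR519A1, MIR527, MIR516A1, MIR1283-2, MIR516A2 and MIR519A2, lie within 11.2 kb starting 84.5 kb after the first hairpin. The 6 sequences with a copy among them held 3263 counts, 95.4% of the cluster, and 5 of the 6 had at least 30 counts. The 27 sequences without such a copy held 159 counts, with a median of 4, and the highest of them was miR-521 with 24. MIR521-1, a hairpin of miR-521, is the next one before MIR522. The share of counts from sequences with a copy in the last 7 hairpins ran from 95.1% to 96.6% over the NC libraries and from 92.6% to 95.7% over the circSOD2-sh libraries. The boundary was drawn after the values were seen, and miR-1283 and the shared 5p sequence also have copies outside these 7 hairpins. Their 1123 and 92 counts therefore cannot be placed at the distal end. miR-522-3p and miR-527 were placed by name alone. miR-527 has the same counts as miR-518a-5p, whose listed hairpins lie outside these 7. If both names carry 1 sequence, it was counted on both sides of the boundary.

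**Figure D3:**
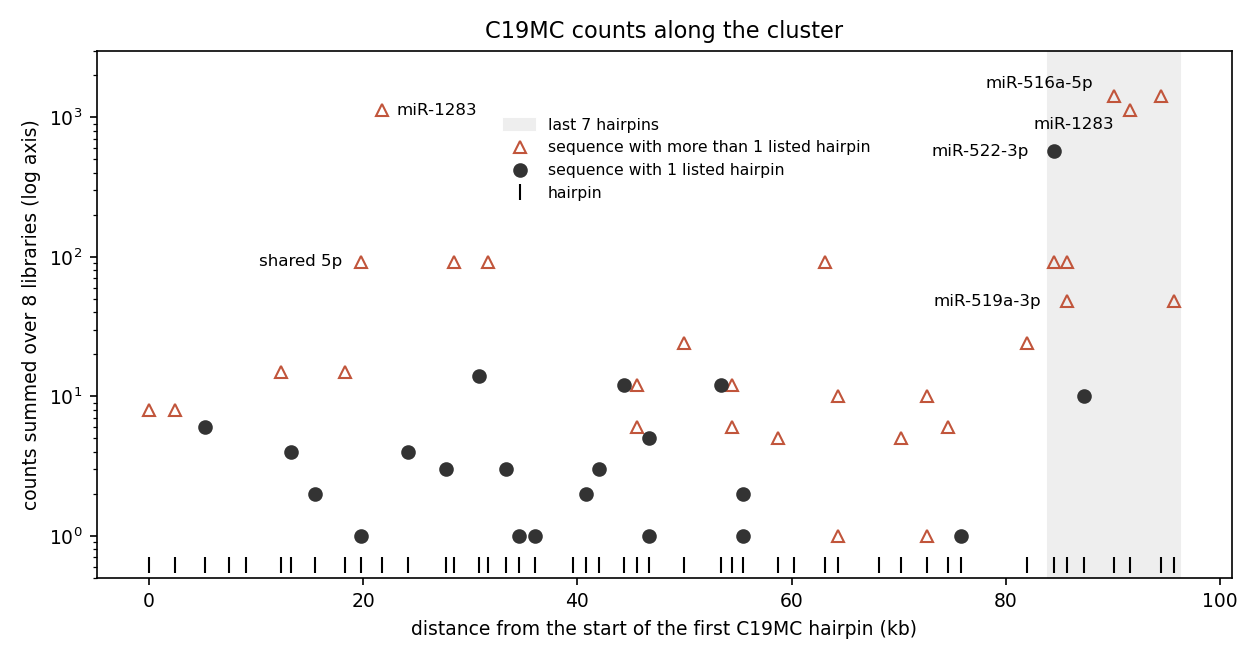
Counts summed over 8 libraries (log axis) of each C19MC sequence, drawn at the distance in kb of each of its hairpins from the start of the first one, with ticks for the 46 hairpins. Triangles are sequences listed for more than 1 hairpin, which appear at each copy with their full count, and the sequences above 100 counts, miR-516a-5p, miR-1283 and miR-522-3p, all have a copy in the shaded last 7 hairpins.

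Among the 36 C19MC rows with a RefSeq sequence, 3 shared their seed with known miRNAs outside the cluster, and all 3 were nearly absent. The seed of the abundant miR-522-3p was not compared, since it had no sequence here. The best known case is miR-519d-3p, which carries the seed of the miR-17 family of cell-cycle-linked miRNAs, as shown by the capitals below.
miR-519d-3p: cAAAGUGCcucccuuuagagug
miR-17-5p: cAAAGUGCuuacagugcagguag
miR-20a-5p: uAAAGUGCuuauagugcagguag
miR-93-5p: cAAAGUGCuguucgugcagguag

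miR-519d-3p had 1 count in the 8 libraries, whereas the 6 other miRNAs with its seed summed to a mean of 4021 normalized CPM in NC and 6473 in circSOD2-sh. The difference between these sums was not tested and depends on the scaling. With TMM the log2 fold changes of the 6 ran from 0.07 for miR-106b-5p (edgeR adjusted p = 0.595) to 1.17 for miR-20a-5p (edgeR adjusted p = 2.7e-05). miR-520c-3p, with 2 counts, had the seed of miR-372-3p, miR-302b-3p and miR-302d-3p, which together were at 0.133 normalized CPM in NC and 0.0886 in circSOD2-sh. miR-1323, with 6 counts, had the seed of miR-548o-3p, at 48.5 to 64.8 normalized CPM in the NC libraries and 34.3 to 58.0 in the circSOD2-sh libraries (edgeR adjusted p = 0.196).

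Other developmental clusters were at different levels. The miR-371 to miR-373 cluster, which follows C19MC on chromosome 19, had 3 rows with a summed level of at most 0.899 normalized CPM in any library. The miR-302 cluster of pluripotent cells had 4 rows and at most 0.534. The X chromosome clusters of miR-506 to miR-514 and miR-888 to miR-892, also expanded in primates, had 18 rows and summed to 7.52 to 8.70 normalized CPM over the NC libraries and 4.45 to 6.62 over the circSOD2-sh libraries. The imprinted DLK1-DIO3 cluster, with 81 rows, summed to 218 to 226 normalized CPM across the NC libraries, to 233 to 278 in 3 circSOD2-sh libraries and to 1791 in circSOD2-sh replicate 2.

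The summed C19MC level did not follow the libraries that stood apart. The stroma markers miR-143-3p and miR-145-5p summed to 537 normalized CPM in NC replicate 4 and 219 in circSOD2-sh replicate 2, against 7.08 to 12.4 in the other 6 libraries. The 4 neural markers summed to 5214 in circSOD2-sh replicate 2, against 472 to 558 in the other 7. For the 39 C19MC rows, NC replicate 4 stood at 0.861 of the median of the other NC libraries and circSOD2-sh replicate 2 at 1.12 times the median of its own group without it. Single members differed, since circSOD2-sh replicate 2 was the highest of its group for miR-516a-5p (31.6 normalized CPM). It was the lowest for miR-1283 (16.6) and miR-522-3p (7.95). With both libraries left out the log2 fold changes were -0.83 for miR-1283, -0.90 for miR-516a-5p, -0.92 for miR-522-3p and -0.96 for the shared 5p sequence with TMM, and all 4 passed the threshold. In that fit 350 of the 945 rows tested were lower and past the threshold. The median log2 fold change of all rows there was -0.13, so part of the larger falls is shared by the bulk of the rows.

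**Figure D4:**
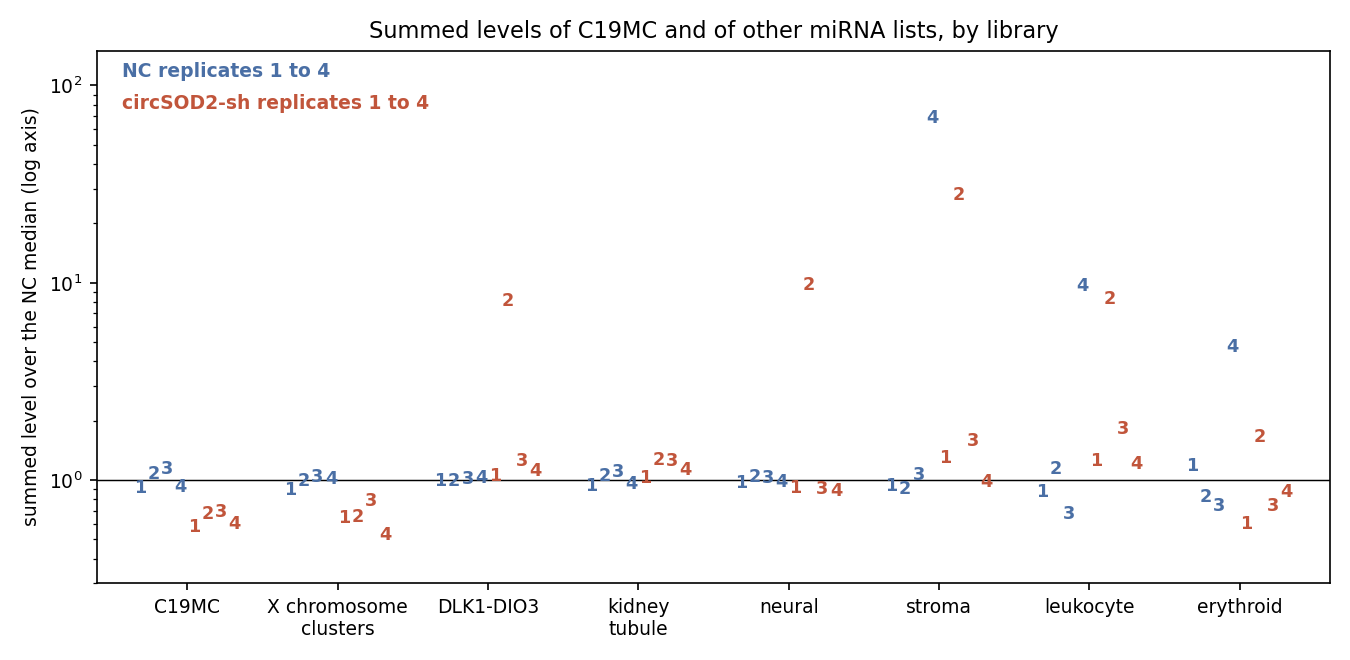
Summed level of C19MC and of 7 other miRNA lists in each library, divided by the median of the NC libraries (log axis), with each replicate drawn as its number. For C19MC the 4 circSOD2-sh libraries lie below the 4 NC libraries with TMM, though above them on average in the authors' CPM, and NC replicate 4 and circSOD2-sh replicate 2, far from the rest for the stroma and leukocyte lists, lie among the other libraries of their group.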

How the data were processed

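Small RNA of 4 NC and 4 circSOD2-sh samples was sequenced. For each mature miRNA the authors deposited unscaled read counts, CPM scaled to a library total, and a table of their own comparison, which holds fold changes and p-values and was not used. The processing notes list FastQC 0.11.2, Trimmomatic 0.36, Bowtie 1.1.1 and GRCh38, and the counting rule is not given in the sources used here. Identical mature sequences carry identical counts, so levels of such rows must not be added as separate molecules.

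The fit used edgeR 4.0.16 under R 4.3.3 (filterByExpr with a minimum count of 10, TMM, quasi-likelihood test, prior count 0.125) over all rows, with Benjamini-Hochberg adjustment over the 895 rows that passed. Alternatives used DESeq2 1.42.0 and, for the log2 values of the deposited CPM after adding 1, limma 3.58.1, which understates changes of low values. The fit was tested on simulated data in which the most abundant rows did not change between groups. That test therefore did not cover the large difference in the predicted miRNA that led the NC counts. Sequences came from RefSeq and hairpins from GENCODE, and tables were made with Python 3.11.15 and pandas 2.3.3. Wilson intervals are from scipy 1.17.1 and figures from matplotlib 3.10.9. No libraries of a group were alike within sampling noise. The rows named are those that passed the filter and the others with at least 10 counts in all. Rows under 10 counts are named only for a shared seed or stretch, for identical counts, for a missing RefSeq sequence, or as placental members. The members and lists were chosen with earlier results of these data known.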

Additional observations from a re-analysis of the deposited data

Results flagged for a closer look

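In 32 groups of 4 libraries examined (4 C19MC sequences and 12 lists in each group), 8 had a library far from the other 3. None of the 8 was a C19MC value. The cutoff would flag about 1 in 20 independent groups by chance. The lists overlap and were chosen with earlier results of these data known, so the 8 cannot be set against that rate. In circSOD2-sh replicate 2 the DLK1-DIO3 cluster stood at 1791 normalized CPM (233 to 278 in the others), the neural markers at 5214 (472 to 491), the stroma markers at 219 (7.65 to 12.4) and the leukocyte markers at 14.7 (2.13 to 3.21). In NC replicate 4 the stroma markers stood at 537 (7.08 to 8.36), the leukocyte markers at 17.1 (from 1.19 upwards in the others) and the erythroid markers at 170.8 (26.8 to 42.6). The miR-302 cluster stood at 0.534 in circSOD2-sh replicate 4 and at 0 in the others of its group, which is the level of 3 counts.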

How the results depend on the processing

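The direction of the C19MC changes rested on the scaling. In the order miR-1283, miR-516a-5p, miR-522-3p and shared 5p sequence, the log2 fold changes were 0.25, 0.32, 0.13 and 0.20 with library totals, 0.11, 0.20, 0.0053 and 0.065 with upper-quartile factors, and 0.10, 0.14, -0.0070 and 0.041 with limma on the deposited CPM plus 1, and 0 of 9 rows were called in each. The rows called lower and higher over the whole table were 290 and 298 with TMM, 158 and 613 with library totals, 160 and 570 with upper-quartile factors, 163 and 561 with limma and 402 and 214 with known miRNA totals. The shared 5p sequence lost its call with DESeq2 (-0.82), without the low-count filter (-0.78) and with the replicate block (-0.73), each leaving 3 rows called. Leaving out a library gave 3 rows (any NC library, where the shared 5p sequence was not tested) to 9 rows (any circSOD2-sh library). Over all rows, those called lower ran from 279 of 894 without NC replicate 3 to 358 of 969 without circSOD2-sh replicate 2. miR-1283, miR-516a-5p and miR-522-3p each kept their direction and call in 23 of 26 alternatives. Most of the 26 kept TMM, so this tally says little about scaling. The rest, where the call was lost, were library totals, upper-quartile factors and limma on the deposited CPM plus 1.

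Over the 39 rows as listed, the summed NC and circSOD2-sh levels were 74.8 and 91.5 normalized CPM with library totals. They were 78.5 and 88.0 with upper-quartile factors, 192.8 and 95.3 with known miRNA totals, and 70.0 and 77.6 in the authors' CPM. With TMM the sums were 91.7 and 57.8 with each sequence once, and 91.3 and 57.7 with identical counts once. With 1 library left out the circSOD2-sh sum ranged from 57.6 to 68.1. At a minimum of 3 counts in a library, 24 rows were detected. Known rows fitted alone gave 246 calls against 588, with fewer rows tested. Chosen after seeing the data were the fit of known rows alone, each other library as TMM reference and identical counts counted once. Same-numbered libraries did not pair, with correlations of 0.26, -0.10, 0.10 and -0.17 between their deviations, and the replicate block gave 574 calls over all rows. Rows under 10 counts are limited by depth.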
